A study of Mus musculus with 48 samples.

Results

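Total RNA from the livers of Nono-/- mice (labelled nono-/-) was compared with that of wild-type (WT) mice at ZT14, ZT16 and ZT18, the first hours of the dark phase, when the animals had access to food (ZT, zeitgeber time, is counted in hours from lights on). The comparison takes 6 of the 48 libraries of the series, chosen by their labels for RNA fraction, genotype and time: 3 Nono-/- libraries and 3 WT libraries, 1 of each genotype at each time. All animals were C57BL/6 mice of 14 weeks, kept under a light-dark cycle of 12 h each and fed only in the dark for one week before collection. Each sample was a pool of 2 mice, and the labels do not say how the nono-/- allele was made or of which sex the animals were. The genotypes at a time point were set against each other as a pair, which shares the time of day, and no label gives the pairs a shared animal, litter or day of handling.

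NONO is a nuclear protein that binds RNA and DNA, forms the DBHS family with SFPQ and PSPC1, is found in paraspeckles, and has been described as a partner of the clock's PER proteins and as a regulator of the liver's response to feeding. When a mouse starts to eat, insulin acts through the IRS adaptors and AKT to raise the transcription factor SREBP-1 (gene Srebf1), and glucose activates ChREBP (gene Mlxipl). Both factors drive genes that turn sugar into fat, while the genes of the fasted state, which make glucose and burn fat, are held back.

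Values are FPKM over the exons or, separately, over the introns of each gene, and levels are given in the order ZT14, ZT16, ZT18. Differences are Nono-/- over WT on the scale of log2(scaled FPKM + 0.1), as the mean of the 3 pairs ± SE, and understate changes of low genes. Adjusted p-values (Benjamini-Hochberg) are from limma over the 11352 genes tested in exons, with 0.05 as the threshold. Both SE and p-values come from a fit to all 24 total RNA libraries, with the time point as a block. With 1 pool per genotype and time, they rest on how far the genotype difference varied between time points within 4 windows of the day. Most of these time points lie outside ZT14 to ZT18, and the spread between single mice is not measured. Depth, read from the steps between low FPKM values, was 18.3 ± 3.19 M reads in Nono-/- libraries and 14.6 ± 1.02 M reads in WT libraries (SD, n = 3 each). Introns took 18.4%, 23.9% and 19.03% of the exon and intron reads in Nono-/- libraries, against 23.9%, 22.7% and 26.7% in WT libraries (exact permutation test, 2-sided, p = 0.3, where 0.1 is the smallest possible). Hepatocyte markers made up most of the marker signal, with a summed level of 41833, 38100.3 and 50216 FPKM in Nono-/- livers, against 50969, 48187 and 51661 FPKM in WT livers. In bulk tissue fewer cells of a type and less RNA per cell cannot be told apart, here and in every result below. The Nono-/- library at ZT18 also held low levels of pancreatic enzyme RNA: Pnlip (pancreatic lipase) was at 1.60 FPKM there and at 0 in the other 5 libraries, and Cpa1 (carboxypeptidase A1) at 0.808 FPKM and 0.

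Nono itself, on the X chromosome (mm10, chrX:101429651-101448593, plus strand), had 0.019, 0 and 0 FPKM in Nono-/- livers, against 10.7, 8.74 and 10.7 FPKM in WT livers. The groups did not overlap, and the difference was by far the largest called (log2 difference -6.62 ± 0.20, adjusted p = 3.98e-09). In introns the gene had 0.089, 0.144 and 0.087 intron FPKM in Nono-/- livers, against 0.370, 0.318 and 0.479 intron FPKM in WT livers. That difference of -1.25 did not pass (adjusted p = 0.0665). The nearest gene past its end, Itgb1bp2, which encodes melusin and starts 516 bases on, was listed at 0 in the exons of all 3 Nono-/- libraries, against 0.274, 0.149 and 0.399 FPKM in WT libraries. Its introns were also at 0 in the Nono-/- libraries, against 0.112, 0.204 and 0.280 FPKM in WT libraries. Itgb1bp2 was the single gene called in introns (adjusted p = 0.00173, 0.0106% of 9422 genes tested). In this window only its WT values counted towards the filter on low intron values. With a 4 times stricter filter 0 genes were called in introns, and its exons were under the limit for testing. The next neighbours on either side, Zmym3 (9429 bases before the start; log2 difference -0.16, adjusted p = 0.445) and Taf1 (84142 bases past the end; -0.05, adjusted p = 0.857), were not called.

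Across exons 178 of the 11352 genes passed (1.57%), of which 110 were higher in Nono-/- livers (0.969%) and 68 lower (0.599%). Every called gene had the same sign in all 3 pairs (27.6% of all genes tested were higher and 26.2% lower in all 3). The levels of the groups did not overlap in 154 of the called genes, beside 20.6% of all genes tested. Both traits favour a call in this paired test, so they add no separate support. The smallest called difference was 0.42 on the log2 scale. The calls rest on all 3 pairs: without the pair at ZT14, ZT16 or ZT18 the count was 2, 7 and 1, and Nono alone kept its call in all 3 of these fits. Without the time point as a block, 3 genes passed, and a correction for transcript length and GC content, chosen after seeing the data, left 13 (0.115%), 8 of them among the 178. With the values as deposited, without scaling of the libraries, 277 genes were higher and 53 lower.

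Genes were named among those that reached 1 FPKM in the higher genotype, with microRNA entries left out. Among the 12 of them that rose most in Nono-/- livers, several are known from macrophages and other white blood cells. Clec2h (a C-type lectin) had the largest rise of these 12, with 4.21, 5.08 and 3.85 FPKM in Nono-/- livers, against 2.63, 1.84 and 0.712 FPKM in WT livers (log2 difference 1.44 ± 0.27, adjusted p = 0.0363). Ms4a6d (a myeloid membrane protein) had 1.41, 2.06 and 1.44 FPKM in Nono-/- livers, against 0.566, 0.983 and 0.429 FPKM in WT livers (log2 difference 1.23 ± 0.25, adjusted p = 0.0373). In both of these genes all Nono-/- libraries were above all WT libraries. On the log2 scale Casp1, the protease that matures interleukin 1 beta, rose by 1.04 ± 0.21 (adjusted p = 0.0413), the tetraspanin Cd53 of leukocytes by 1.03 ± 0.23 (adjusted p = 0.049), and the immunoglobulin receptor Fcgr4 by 1.01 ± 0.20 (adjusted p = 0.0363). Pla2g7, a secreted phospholipase of macrophages, rose by 0.96 ± 0.19 and the serpin Serpinb6b by 0.99 ± 0.21 (adjusted p = 0.0363 and 0.0438). The interferon-induced genes Epsti1 (0.97 ± 0.17, adjusted p = 0.0325) and Ifi47 (0.96 ± 0.16, adjusted p = 0.0299) rose as well, and so did Gm1966, of the family of very large interferon-inducible GTPases (1.002 ± 0.16, adjusted p = 0.0226). Ifi47 overlaps Olfr56 on the same strand, and Pla2g7 a gene on the other strand. Of another kind was Fbxo36, which encodes an F-box protein and had 7.84, 6.86 and 9.33 FPKM in Nono-/- livers, against 3.21, 3.71 and 2.94 FPKM in WT livers (log2 difference 1.24 ± 0.16, adjusted p = 0.0145). Fbxo36 kept its call with the length and GC correction (1.11, adjusted p = 0.0186). In the same corrected fit by limma Clec2h (adjusted p = 0.086), Ms4a6d (0.115), Casp1 (0.136) and Cd53 (0.143) lost theirs.

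The smallest p-values after Nono belonged to a pair of genes whose groups did not overlap. Gabarapl2, an ATG8-family protein of autophagy, had 13.02, 8.86 and 10.3 FPKM in Nono-/- livers, against 7.19, 5.24 and 4.95 FPKM in WT livers (log2 difference 0.87 ± 0.10, adjusted p = 0.0052; 0.57 with the correction, adjusted p = 0.0325). Tmsb4x, the actin-binding thymosin beta 4, had 124, 109 and 106 FPKM in Nono-/- livers, against 69.7, 64.5 and 50.5 FPKM in WT livers (log2 difference 0.87 ± 0.10, adjusted p = 0.00615; 0.59 with the correction, adjusted p = 0.0325). Both were higher in Nono-/- livers at every time point and were still called after the correction.

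Among the 12 genes that fell most by the same rule were Kmt2d and Nfic, which act on transcription. Kmt2d, a histone H3 lysine 4 methyltransferase, had 0.556, 0.478 and 0.923 FPKM in Nono-/- livers, against 1.13, 1.38 and 1.80 FPKM in WT livers (log2 difference -1.07 ± 0.19, adjusted p = 0.0325; -0.34 with the correction). Nfic, a nuclear factor I transcription factor, had 1.55, 1.48 and 3.51 FPKM in Nono-/- livers, against 2.89, 5.48 and 5.42 FPKM in WT livers (log2 difference -1.11 ± 0.22, adjusted p = 0.0384; -0.64 with the correction). Both genes were lower in each pair, and the groups of Nfic overlapped, through its Nono-/- value at ZT18. Eif4ebp2, a repressor of translation downstream of mTOR, had 8.69, 6.35 and 11.95 FPKM in Nono-/- livers, against 16.04, 21.8 and 14.8 FPKM in WT livers (log2 difference -0.99 ± 0.21, adjusted p = 0.0438). Pvrl1 (nectin-1, a cell adhesion protein) fell with a log2 difference of -1.49 ± 0.27 (adjusted p = 0.0325), the oxidoreductase Wwox with -1.32 ± 0.23 (adjusted p = 0.0325) and Prrc2a, a large RNA-binding protein, with -1.22 ± 0.25 (adjusted p = 0.0423). Mospd3 (-1.55 ± 0.34, adjusted p = 0.049), Tmem265 (-1.15 ± 0.24, 0.0438), Caln1, which overlaps a gene on the other strand (-1.14 ± 0.24, 0.0438) and Inafm1 (-1.10 ± 0.21, 0.0363) fell too, from the same test, at no more than 2.39 FPKM in any of the 6 libraries. With the correction the difference of Prrc2a was -0.63, and none of the genes named here as fallen kept its call other than Nono. On the X chromosome Med12, a subunit of the Mediator complex 130717 bases before Nono, had 1.22, 1.46 and 1.97 FPKM in Nono-/- livers, against 1.96, 2.48 and 2.60 FPKM in WT livers (log2 difference -0.60, adjusted p = 0.0438).

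The called genes differed from the rest in the make-up of their transcripts. Genes called higher in Nono-/- livers had a median exon length of 1461 bases and a median GC content of 44.6%, genes called lower 5011 bases and 55.1%, and all genes tested 2633 bases and 49.8%. Genes with a GC content under 42% had median log2 differences of 0.28, 0.30 and 0.09 at ZT14, ZT16 and ZT18, and genes over 54% had -0.32, -0.35 and -0.14. By exon length the slope was steepest at ZT18 and flattest at ZT14: genes under 1000 bases had medians of 0.01, 0.08 and 0.16 at ZT14, ZT16 and ZT18, and genes over 6000 bases had -0.06, -0.13 and -0.15. The correction for both is given below for each list median and each printed exon difference of a named gene that it moved by over 1.5 times; beyond this the part of these slopes in the differences was not tested.

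**Figure D1:**
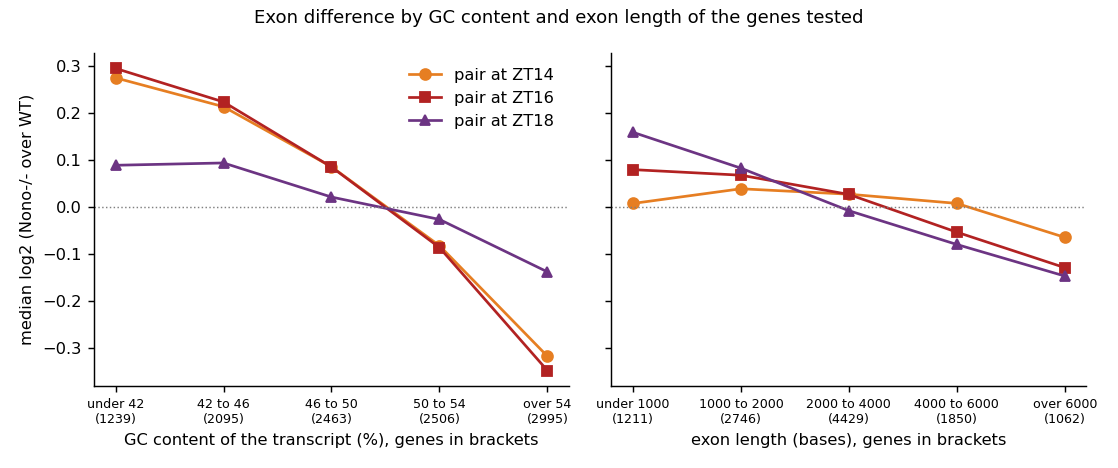
Median log2 difference in exon FPKM, Nono-/- over WT, of the genes tested, grouped by transcript GC content (left) and by exon length (right), with a line for each pair of libraries. In all 3 pairs the lowest GC group sits above 0 and the highest below it, with the flattest slope at ZT18, and by length the slope is steepest at ZT18 and nearly flat at ZT14.

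Most genes of fat synthesis stood lower in Nono-/- livers, and 1 passed the test (0.599% of all genes tested were called lower). Of 21 tested of 22 listed, 1 fell and 0 rose, 14 were lower in all 3 pairs (26.2% of all genes tested were) and 1 was higher in all 3 (27.6% of all were), and in 6 the groups did not overlap with Nono-/- lower (7.62% of all genes). An unadjusted p under 0.05 was reached by 10 of the 21, beside 2735 of all 11352 genes tested. The median difference was -0.44, beside 0.01 for all genes tested, and -0.26 after the length and GC correction. It was -0.25, -0.55 and -0.48 in the pairs at ZT14, ZT16 and ZT18, and -0.15 over the other 9 time points of the day.

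The called gene was Mlxipl, which encodes the glucose-sensing factor ChREBP. It had 7.20, 9.68 and 13.9 FPKM in Nono-/- livers, against 14.3, 14.97 and 26.02 FPKM in WT livers, without overlap (log2 difference -0.85 ± 0.12, adjusted p = 0.0172), a 1.80-fold lower level. With the length and GC correction it was at -0.52 and lost its call (adjusted p = 0.131). Srebf1, which encodes SREBP-1, had 13.4, 10.2 and 24.98 FPKM in Nono-/- livers, against 26.6, 33.4 and 34.03 FPKM in WT livers, again without overlap, and missed the threshold (log2 difference -1.05 ± 0.24, adjusted p = 0.0503; -0.63 and 0.106 with the correction). Its reads cannot be told apart from those of Rai1, which overlaps it on the other strand, because the counting is not stated to use strand. Fasn, the fatty acid synthase, had 20.4, 18.3 and 44.3 FPKM in Nono-/- livers, against 38.5, 69.1 and 83.3 FPKM in WT livers (log2 difference -1.26 ± 0.29, adjusted p = 0.0515; -0.69 with the correction). In WT livers its level was higher at each later time point, and in Nono-/- livers it was near 20 FPKM at both ZT14 and ZT16.

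None of the other enzymes of fat synthesis passed. Acacb, the acetyl-CoA carboxylase isoform that also restrains fat oxidation, had 2.82, 2.81 and 5.03 FPKM in Nono-/- livers, against 4.55, 6.61 and 11.1 FPKM in WT livers (log2 difference -1.01 ± 0.29, adjusted p = 0.0705; -0.52 with the correction). Acly, which makes cytosolic acetyl-CoA from citrate, had 46.6, 43.1 and 75.01 FPKM in Nono-/- livers, against 54.7, 79.7 and 126 FPKM in WT livers (log2 difference -0.63 ± 0.18, adjusted p = 0.0731). Gpam, the first enzyme of triglyceride synthesis, had 34.6, 39.5 and 53.2 FPKM in Nono-/- livers, against 42.1, 64.4 and 78.8 FPKM in WT livers (log2 difference -0.53 ± 0.14, adjusted p = 0.0601). These 3 genes were lower in every pair. Dgat2, which adds the last acyl chain, differed by -0.49 ± 0.12 (adjusted p = 0.0558), Fads1, a desaturase, by -0.51 ± 0.15 (0.0736), and Lpin1, a phosphatidate phosphatase that is also a feeding-sensitive coregulator, by -0.70 ± 0.33 (0.213). With the correction Dgat2 was at -0.26. Scd1, the main stearoyl-CoA desaturase, was higher in Nono-/- livers at ZT14 and lower at ZT16 and ZT18, with 1956, 789 and 922 FPKM in Nono-/- livers, against 1708, 1556 and 1419.99 FPKM in WT livers (log2 difference -0.48 ± 0.29, adjusted p = 0.328). Insig2, which holds SREBP precursors in the endoplasmic reticulum, was the single member that was higher in all 3 pairs (log2 difference 0.42 ± 0.26, adjusted p = 0.344; 0.21 with the correction).

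**Figure D2:**
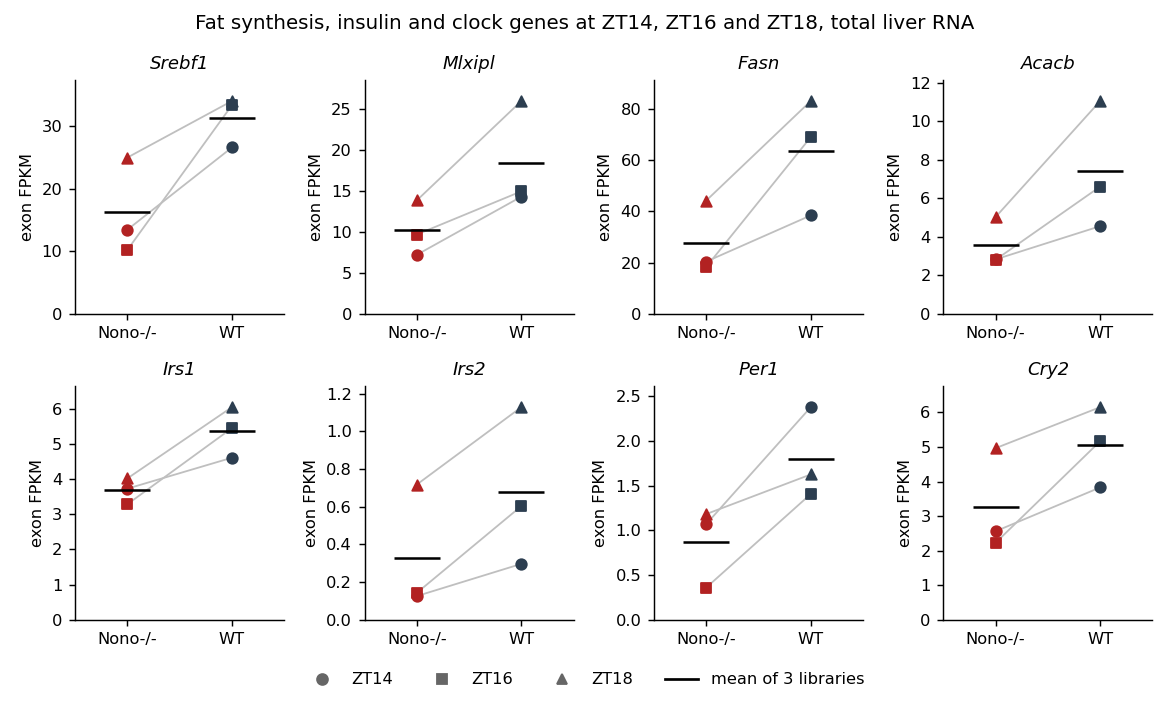
Exon FPKM of 8 genes of fat synthesis, insulin signalling and the clock in the 3 Nono-/- livers and the 3 WT livers, each point 1 library, with grey lines joining the pair of a time point and black bars at group means. Every pair slopes upward from Nono-/- to WT, and of these genes Mlxipl passed the test. The genes were chosen after values were seen. Members of the same lists that went the other way, among them Insig2, Igfbp1 and Nr1d2, are not shown.

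RefSeq promoter windows (250 bases before to 50 after the start, GRCm38.p6) were found for 18 of the fat synthesis genes. They were searched on both strands for the E-box CACGTG, the site of clock and USF factors, and for the sterol response element TCACNCCAC, the letters SREBPs are known to bind. An E-box lay in 2 of them, Slc25a1 and Elovl5 (11.1%, beside 7.15% of all 32851 windows), and a sterol response element in 1, Mlxipl (5.56%, beside 1.24%). The Mlxipl window is shown because it is the promoter of the called gene; capitals mark the element, 136 bases before the start.
Mlxipl promoter, chr5:135106641-135106940, plus strand: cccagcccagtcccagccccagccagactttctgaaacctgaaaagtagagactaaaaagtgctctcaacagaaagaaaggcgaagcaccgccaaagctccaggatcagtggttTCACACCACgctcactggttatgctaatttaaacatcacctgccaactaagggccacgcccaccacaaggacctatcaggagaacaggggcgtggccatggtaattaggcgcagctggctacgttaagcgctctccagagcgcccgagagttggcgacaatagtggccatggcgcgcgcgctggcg

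Of 18 insulin and IGF signalling genes 0 passed in either direction. An unadjusted p under 0.05 was reached by 4, a share similar to the 2735 of all 11352 genes tested. Of these 18, 7 were lower in all 3 pairs (26.2% of all genes tested were) and 0 higher in all 3 (27.6%). The median was -0.12 (-0.03 with the correction, -0.06 without the pair at ZT16). Both insulin receptor substrates stood below that median. Irs2, the feeding-regulated insulin receptor substrate of liver, had 0.126, 0.143 and 0.718 FPKM in Nono-/- livers, against 0.297, 0.604 and 1.13 FPKM in WT livers (log2 difference -0.9996 ± 0.25, adjusted p = 0.0542; -0.65 with the correction). Irs1 had 3.73, 3.29 and 4.02 FPKM in Nono-/- livers, against 4.61, 5.45 and 6.05 FPKM in WT livers (log2 difference -0.54 ± 0.13, adjusted p = 0.0542; -0.31 with the correction). Both were lower in Nono-/- livers at each time, and the groups overlapped in Irs2 and not in Irs1. Reads of Irs2 cannot be told apart from those of 9530052E02Rik on the other strand. The receptor Insr was at -0.16 ± 0.16 (adjusted p = 0.593), and the transcription factor Foxo1, which AKT keeps out of the nucleus, at -0.48 ± 0.17 (0.124). With the correction Insr was at -0.05. Igfbp1, an IGF binding protein that insulin normally lowers, had 3.24, 4.22 and 16.4 FPKM in Nono-/- livers, against 2.08, 5.56 and 4.72 FPKM in WT livers (log2 difference 0.65 ± 0.45, adjusted p = 0.398), with the widest gap at ZT18.

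Genes of sugar use were lower in median (-0.26, -0.16 with the correction, -0.17 without the pair at ZT16), with 0 of 21 called. An unadjusted p under 0.05 was reached by 5, a share similar to the 2735 of all 11352 genes tested. In all 3 pairs 2 were higher and 12 lower, beside 27.6% and 26.2% of all genes tested. Tkt, transketolase of the pentose phosphate pathway, was at -0.65 ± 0.25 (adjusted p = 0.148) and Pklr, the liver pyruvate kinase, at -0.36 ± 0.19 (0.254; -0.19 with the correction). Ldha, lactate dehydrogenase A, was higher in each pair, with 167, 156 and 258 FPKM in Nono-/- livers, against 121, 143 and 161 FPKM in WT livers (log2 difference 0.41 ± 0.24, adjusted p = 0.303). Gluconeogenesis had 0 of 9 called and a median of -0.16 (-0.10 with the correction, -0.05 without the pair at ZT16 and -0.26 without that at ZT14). Its rate-setting genes Pck1 (-0.28 ± 0.21, adjusted p = 0.434) and G6pc (-0.13 ± 0.21, 0.737) overlapped between the groups, and with the correction they were at -0.16 and -0.26. Glucagon and cAMP response genes had 0 of 8 called and a median of -0.13 (-0.24 without the pair at ZT14, 0.003 without that at ZT18), and glycogen genes 0 of 13 and 0.08.

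None of the 17 core clock genes tested was called. An unadjusted p under 0.05 was reached by 6, beside 2735 of all 11352 genes tested. In all 3 pairs 2 were higher and 10 lower, beside 27.6% and 26.2% of all genes tested. The groups did not overlap in 2, with Nono-/- lower (7.62% of all genes tested). The median was -0.29 in this window, -0.20 over the rest of the day and -0.22 with the correction. Among the repressors Per1 had 1.07, 0.360 and 1.18 FPKM in Nono-/- livers, against 2.38, 1.41 and 1.63 FPKM in WT livers, without overlap (log2 difference -1.09 ± 0.27, adjusted p = 0.0556; -0.61 with the correction). Cry2 had 2.56, 2.23 and 4.96 FPKM in Nono-/- livers, against 3.83, 5.17 and 6.15 FPKM in WT livers (log2 difference -0.69 ± 0.18, adjusted p = 0.057; -0.39 with the correction), and its reads are shared with D930015M05Rik on the other strand. Per2 had 5.13, 5.21 and 5.38 FPKM in Nono-/- livers, against 7.78, 7.84 and 8.69 FPKM in WT livers (log2 difference -0.63 ± 0.23, adjusted p = 0.123; -0.31 with the correction), again without overlap. Per3 was at -0.15 ± 0.26, Cry1 at -0.29 ± 0.16 and Ciart at -0.29 ± 0.29. Of the activators Arntl (BMAL1) had 0.617, 2.88 and 5.21 FPKM in Nono-/- livers, against 1.11, 4.40 and 7.20 FPKM in WT livers (log2 difference -0.61 ± 0.22, adjusted p = 0.12), and Clock was at -0.08 ± 0.11. The REV-ERB gene Nr1d2 was the clearest exception, with 21.3, 13.96 and 9.10 FPKM in Nono-/- livers, against 13.1, 10.3 and 5.09 FPKM in WT livers (log2 difference 0.64 ± 0.22, adjusted p = 0.106), while its partner Nr1d1, which overlaps Thra, was at -0.23 ± 0.29. Rora stood at -0.14 ± 0.19. Of the output factors Dbp was at 0.45 ± 0.29, Tef at -0.03 ± 0.21, Hlf at -0.35 ± 0.20, Nfil3 at -0.37 ± 0.17 and Bhlhe40 at -0.30 ± 0.18. Of the clock genes given without an adjusted p, Nfil3 had the lowest one (0.199). With the correction Dbp was at 0.81 and Nfil3 at -0.24, and the differences of Per3 (0.09), Nr1d1 (0.05), Rora (0.13) and Tef (0.17) changed sign. Dbp, Ciart and Bhlhe40 overlap genes on the other strand as well.

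Cholesterol genes held 0 calls among 24 and a median of -0.09 (-0.06 with the correction, 0.02 without the pair at ZT16, -0.17 without that at ZT14). In all 3 pairs 8 were higher and 9 lower, beside 27.6% and 26.2% of all genes tested. An unadjusted p under 0.05 was reached by 6, a share similar to the 2735 of all 11352 genes tested. The transcription factor gene Srebf2 had 1.57, 1.19 and 3.16 FPKM in Nono-/- livers, against 2.15, 3.04 and 4.51 FPKM in WT livers (log2 difference -0.75 ± 0.23, adjusted p = 0.0893; -0.33 with the correction). Of the synthesis enzymes Msmo1, a sterol oxidase, had 159, 109 and 136 FPKM in Nono-/- livers, against 70.6, 80.8 and 76.4 FPKM in WT livers (log2 difference 0.80 ± 0.25, adjusted p = 0.0893), with every Nono-/- library above every WT library. Neither gene passed. Bile acid genes held 0 calls among 16 and a median of 0.22 with and without the correction (-0.01 over the rest of the day, 0.15 without the pair at ZT14). In all 3 pairs 9 were higher and 0 lower, beside 27.6% and 26.2% of all genes tested. Cyp7b1, of the acidic pathway of bile acid synthesis, had 195, 306 and 187 FPKM in Nono-/- livers, against 136, 175 and 89.3 FPKM in WT livers (log2 difference 0.79 ± 0.30, adjusted p = 0.138). Slco1b2, a hepatocyte uptake transporter, had 809, 647 and 499.8 FPKM in Nono-/- livers, against 590.4, 441 and 271 FPKM in WT livers (log2 difference 0.62 ± 0.20, adjusted p = 0.0997; 0.38 with the correction). Both were higher in each pair, and Cyp7a1, the rate-limiting enzyme, was at 0.43 ± 0.25 (0.307; 0.24 with the correction).

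Of 27 genes of fat oxidation and ketogenesis 1 rose and 0 fell, beside 0.969% and 0.599% of all genes tested. In all 3 pairs 9 were higher and 0 lower, beside 27.6% and 26.2% of all genes tested. The median was 0.11 (0.19 with the correction, -0.04 over the rest of the day). Without the pair at ZT18 it was 0.06, and without that at ZT16 0.20. The called gene was Slc25a20, the carnitine-acylcarnitine carrier that brings fatty acids into mitochondria. It had 66.5, 69.9 and 63.9 FPKM in Nono-/- livers, against 49.6, 52.6 and 45.5 FPKM in WT livers (log2 difference 0.43 ± 0.08, adjusted p = 0.0363), a 1.35-fold rise with no overlap, and 0.34 with the correction (adjusted p = 0.0787). Etfdh, which passes electrons from fat oxidation to ubiquinone, had 126, 125 and 117 FPKM in Nono-/- livers, against 91.3, 101 and 77.5 FPKM in WT livers (log2 difference 0.45 ± 0.10, adjusted p = 0.0504; 0.30 with the correction), and Hadhb, the thiolase of the trifunctional protein, was at 0.48 ± 0.13 (0.0604; 0.26 with the correction). Of the regulators, Ppara was at -0.18 ± 0.13 (0.429; 0.05 with the correction) and Cpt1a, the entry enzyme, at 0.16 ± 0.13 (0.46; 0.28), while Fgf21 was under the limit for testing in both genotypes.

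Amino acid and urea cycle genes had 0 calls among 19 and a median of -0.18 (0.11 over the rest of the day, -0.11 without the pair at ZT16). In all 3 pairs 5 members were higher and 9 lower, beside 27.6% and 26.2% of all genes tested. Oat, ornithine aminotransferase, had 399.99, 431 and 447 FPKM in Nono-/- livers, against 239, 384 and 212 FPKM in WT livers (log2 difference 0.65 ± 0.16, adjusted p = 0.0542). Cbs, the first enzyme of transsulfuration, had 26.99, 25.6 and 53.4 FPKM in Nono-/- livers, against 37.4, 43.1 and 83.2 FPKM in WT livers (log2 difference -0.63 ± 0.20, adjusted p = 0.0933; -0.38 with the correction), and the serine dehydratase-like gene Sdsl was at -1.29 ± 0.36 (0.0673). Genes of the ATF4 stress response had 0 of 12 called and a median of -0.15 (-0.08 without the pair at ZT14, -0.03 with the correction).

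Hnf4a, the nuclear receptor that maintains hepatocyte identity, was the called gene among the hepatocyte markers (0.599% of all genes tested were called lower). It fell to 99.8, 78.6 and 84.4 FPKM in Nono-/- livers, against 138, 113 and 107 FPKM in WT livers, without overlap (log2 difference -0.46 ± 0.09, adjusted p = 0.0363; -0.22 with the correction, adjusted p = 0.224). Its antisense gene Hnf4aos overlaps it, so their reads cannot be told apart. Of the 7 markers tested 5 were lower in all 3 pairs (26.2% of all genes tested were) and 0 higher (27.6%). Alb (albumin) was at -0.28 ± 0.16 (adjusted p = 0.313), and at -0.44 with the correction. The median of the 7 was -0.19 (-0.06 with the correction). Genes known to respond to growth hormone in the male liver had 0 of 18 called and a median of 0.05 (-0.02 with the correction). Mup21, a major urinary protein, had 63.9, 81.97 and 59.4 FPKM in Nono-/- livers, against 196, 115 and 104 FPKM in WT livers (log2 difference -0.98 ± 0.24, adjusted p = 0.0546), and passed with the correction (-1.39, adjusted p = 0.0477); reads of this family may be split among near-identical copies. Drug-metabolizing P450 genes had 0 of 16 called and a median of 0.05 (-0.03 with the correction), and Cyp2c29, a highly expressed P450, had 891, 949 and 864 FPKM in Nono-/- livers, against 687, 779 and 686 FPKM in WT livers (log2 difference 0.32 ± 0.12, adjusted p = 0.146; 0.04 with the correction). Cyp2a4, a near copy of Cyp2a5, was at 28.5 FPKM in the WT library at ZT18 and at no more than 0.225 FPKM in the other 5.

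Of 12 markers of Kupffer cells, the resident macrophages of the liver, 2 rose in Nono-/- livers and 0 fell. Of all genes tested 0.969% were called higher and 0.599% lower. An unadjusted p under 0.05 was reached by 7, beside 2735 of all 11352 genes tested. In all 3 pairs 9 were higher (27.6% of all genes tested were) and 0 lower (26.2%). The groups did not overlap in 7 with Nono-/- higher (13.0% of all genes tested). The median was 0.61 (0.57 with the correction, 0.29 over the rest of the day), and 0.56, 0.29 and 0.88 in the pairs at ZT14, ZT16 and ZT18. Fitted with the intron share of all reads as a covariate, the median was 0.30. The summed level of the 12 markers was 165, 158 and 198 FPKM in Nono-/- livers, against 113, 142 and 97.4 FPKM in WT livers.

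Vsig4, a complement receptor of Kupffer cells, had 23.3, 21.9 and 17.3 FPKM in Nono-/- livers, against 12.5, 17.4 and 8.72 FPKM in WT livers (log2 difference 0.73 ± 0.16, adjusted p = 0.0485). Adgre1, which encodes the F4/80 antigen, had 9.57, 10.2 and 9.79 FPKM in Nono-/- livers, against 6.24, 7.70 and 4.60 FPKM in WT livers (log2 difference 0.68 ± 0.15, adjusted p = 0.0443). The lowest Nono-/- value of Adgre1 was above the highest WT value, and in Vsig4 the Nono-/- library at ZT18 lay just under the WT library at ZT16. With the length and GC correction Vsig4 was at 0.44 (adjusted p = 0.168) and Adgre1 at 0.60 (0.101), so neither kept its call. Cd163, a haemoglobin scavenger receptor, had 11.3, 9.06 and 10.3 FPKM in Nono-/- livers, against 6.38, 5.90 and 3.94 FPKM in WT livers (log2 difference 0.92 ± 0.22, adjusted p = 0.0536). Timd4, a receptor for dying cells, was at 0.75 ± 0.20 (adjusted p = 0.0648), and the Kupffer lectin Clec4f at 0.53 ± 0.21 (0.149).

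Markers of other cell types held no call apart from Hnf4a. Stellate cell markers had 0 of 11 called and a median of 0.28 (0.26 with the correction, 0.04 without the pair at ZT18), with a summed level of 218, 184 and 200.3 FPKM in Nono-/- livers, against 162, 161 and 139 FPKM in WT livers. The matrix protein Dcn had 133, 112 and 110.4 FPKM in Nono-/- livers, against 90.1, 89.05 and 72.5 FPKM in WT livers, without overlap (log2 difference 0.49 ± 0.11, adjusted p = 0.0504; 0.20 with the correction), the vitamin A enzyme Lrat was at 0.57 ± 0.16 (0.069), and the pericyte gene Rgs5 at 0.53 ± 0.13 (0.0564). Endothelial markers had 0 of 12 called and a median of 0.09 (-0.10 without the pair at ZT18). Neutrophil and monocyte markers summed to 5.36, 6.04 and 6.01 FPKM in Nono-/- livers, against 2.98, 7.67 and 3.34 FPKM in WT livers, which overlapped, and 3 of 10 passed the limit for testing. Cholangiocyte markers had 0 of 5 called, lymphocyte markers 0 of 1, erythroid markers 0 of 7 and pancreas and fat cell markers 0 of 3. The erythroid median was -0.50 (-0.61 with the correction), and -0.35, 0.26 and -2.00 in the pairs at ZT14, ZT16 and ZT18. In all 3 pairs 2 erythroid markers were higher and 2 lower, beside 27.6% and 26.2% of all genes tested. Car1, a carbonic anhydrase on the erythroid list, had 15.4, 12.5 and 10.2 FPKM in Nono-/- livers, against 6.85, 5.37 and 5.03 FPKM in WT livers (log2 difference 1.11 ± 0.25, adjusted p = 0.0501) and differed by 1.20 over the rest of the day.

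Most interferon response genes stood higher in Nono-/- livers, and 1 passed the test (0.969% of all genes tested were called higher). Of 27 tested of 28 listed 1 rose and 0 fell, and 14 had an unadjusted p under 0.05, beside 2735 of all 11352 genes tested. In all 3 pairs 19 were higher (27.6% of all genes tested were) and 1 lower (26.2%). The groups did not overlap in 13 with Nono-/- higher (13.0% of all genes tested). The median was 0.43 (0.38 with the correction, 0.27 over the rest of the day), and 0.45, 0.38 and 0.44 in the pairs at ZT14, ZT16 and ZT18. The Kupffer cell markers above were higher in the same libraries, and their part in this difference was not tested.

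Ifih1 (MDA5), the sensor of long double-stranded RNA, was the called member, with 12.4, 10.02 and 9.41 FPKM in Nono-/- livers, against 6.75, 7.35 and 6.33 FPKM in WT livers, without overlap (log2 difference 0.62 ± 0.13, adjusted p = 0.0413), and it also passed with the correction (0.53, adjusted p = 0.0325). Iigp1, an interferon-induced GTPase, had 162, 118 and 105 FPKM in Nono-/- livers, against 89.97, 72.6 and 55.3 FPKM in WT livers (log2 difference 0.81 ± 0.20, adjusted p = 0.0542). Gbp2, a guanylate-binding protein, had 3.11, 3.43 and 3.23 FPKM in Nono-/- livers, against 1.95, 1.72 and 1.58 FPKM in WT livers (log2 difference 0.85 ± 0.20, adjusted p = 0.0527). Ifit3, an antiviral protein with tetratricopeptide repeats, had 4.25, 3.40 and 4.10 FPKM in Nono-/- livers, against 1.93, 2.43 and 2.16 FPKM in WT livers (log2 difference 0.81 ± 0.19, adjusted p = 0.0515). These 3 genes showed no overlap between the groups and missed the threshold. Usp18, which removes ISG15 from proteins, was at 0.67 ± 0.18 (adjusted p = 0.0632). Not every classic target was clearly higher. Rsad2 (viperin) was at 0.21 ± 0.27 (adjusted p = 0.664), and at 0.08 with the correction. Isg15 was at 0.26 ± 0.32 (adjusted p = 0.655). Both genes had overlapping groups. Stat2, a subunit of the factor ISGF3, was the member lower in all 3 pairs. It had 5.57, 5.65 and 6.42 FPKM in Nono-/- livers, against 7.09, 7.09 and 9.14 FPKM in WT livers. Its log2 difference was -0.40 ± 0.13 (adjusted p = 0.102), and -0.25 with the correction.

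**Figure D3:**
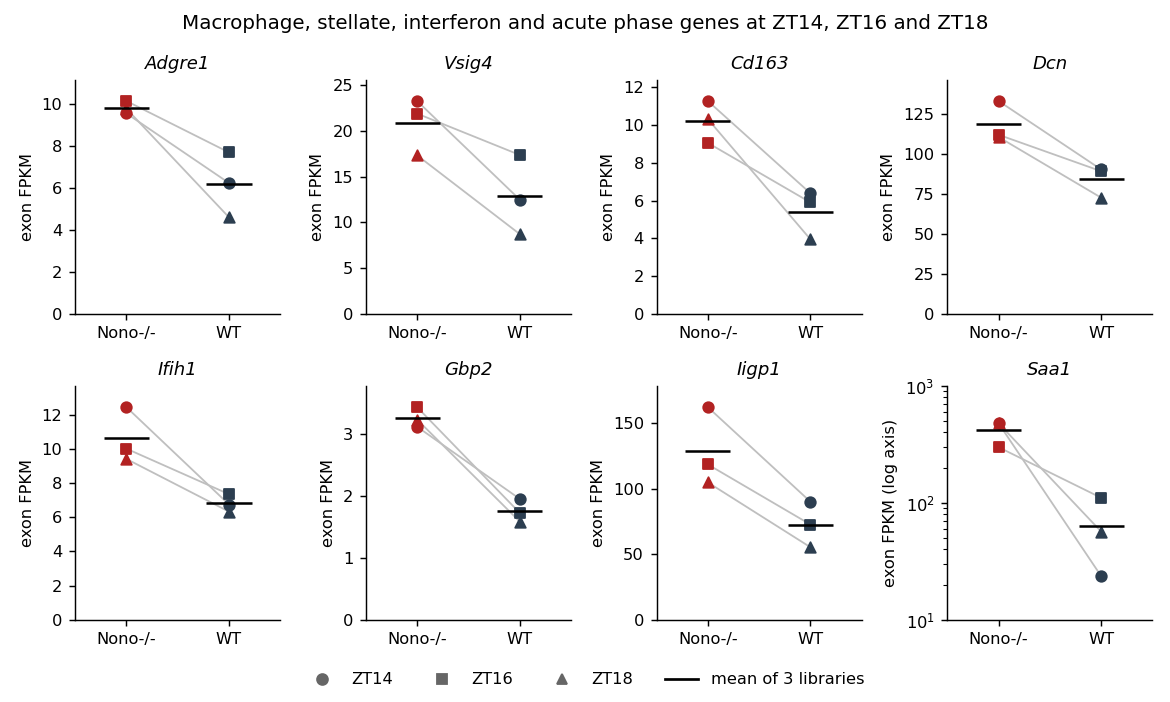
Exon FPKM of macrophage, stellate cell, interferon and acute phase genes in the 3 Nono-/- livers and the 3 WT livers, each point 1 library, with grey lines joining the pair of a time point and black bars at group means; the axis of Saa1 is logarithmic. Every pair slopes downward from Nono-/- to WT, and Adgre1, Vsig4 and Ifih1 passed the test. The genes were chosen after values were seen. Members of the same lists that went the other way, among them Stat2 and C3, are not shown.

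The interferon-stimulated response element is bound by ISGF3 and by interferon regulatory factors, and its core was searched on both strands as GAAA, any pair of bases and GAAA again (TTTC, a pair and TTTC where it lies on the other strand). Of 23 interferon genes with a RefSeq promoter window 14 held it (60.9%, beside 3.44% of all 32851 windows). The 14 tested genes with the core had a median difference of 0.31 and 9 of them were higher in all 3 pairs, and the 9 without it had 0.48 and 7. The windows of Ifih1, Ifit3 and Gbp2, which were high in Nono-/- livers, are set beside that of Rsad2, which holds the core and whose groups overlapped. Capitals mark the core, which starts 32 bases past the start of Ifih1, 156 and 122 bases before that of Ifit3, 59 before that of Gbp2 and 120 before that of Rsad2.
Ifih1 promoter, chr2:62646206-62646505, minus strand: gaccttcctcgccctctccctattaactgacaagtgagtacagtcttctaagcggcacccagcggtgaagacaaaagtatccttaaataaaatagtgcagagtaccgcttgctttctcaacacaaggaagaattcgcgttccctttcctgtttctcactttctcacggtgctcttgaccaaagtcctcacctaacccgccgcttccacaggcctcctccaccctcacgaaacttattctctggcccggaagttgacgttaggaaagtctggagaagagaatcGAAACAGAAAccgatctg
Ifit3 promoter, chr19:34583279-34583578, plus strand: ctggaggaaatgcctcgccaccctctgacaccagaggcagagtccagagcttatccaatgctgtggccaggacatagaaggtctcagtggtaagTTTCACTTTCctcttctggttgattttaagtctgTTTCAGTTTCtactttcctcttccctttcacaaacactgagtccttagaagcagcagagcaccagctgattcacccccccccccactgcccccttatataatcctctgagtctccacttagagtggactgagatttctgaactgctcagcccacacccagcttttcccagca
Gbp2 promoter, chr3:142620413-142620712, plus strand: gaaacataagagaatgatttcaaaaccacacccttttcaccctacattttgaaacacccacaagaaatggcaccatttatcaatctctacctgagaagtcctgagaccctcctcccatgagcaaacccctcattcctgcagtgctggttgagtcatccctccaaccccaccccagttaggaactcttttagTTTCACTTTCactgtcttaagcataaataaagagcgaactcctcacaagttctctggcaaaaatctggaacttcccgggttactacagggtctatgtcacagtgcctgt
Rsad2 promoter, chr12:26456403-26456702, minus strand: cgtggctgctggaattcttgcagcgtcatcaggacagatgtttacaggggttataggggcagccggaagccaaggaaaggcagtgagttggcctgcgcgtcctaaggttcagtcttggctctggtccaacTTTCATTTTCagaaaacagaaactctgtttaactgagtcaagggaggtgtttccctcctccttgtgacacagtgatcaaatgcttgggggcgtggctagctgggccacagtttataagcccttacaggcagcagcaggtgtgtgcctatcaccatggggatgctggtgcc

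Acute phase and iron genes held 0 calls among 22. In all 3 pairs 12 were higher (27.6% of all genes tested were) and 1 lower (26.2%). The groups did not overlap in 7 with Nono-/- higher (13.0% of all genes tested). The median was 0.37 (0.22 with the correction, 0.13 over the rest of the day). Without the pair at ZT14 it was 0.24, and with the intron share of all reads as a covariate 0.12. Saa1, serum amyloid A1, had 479, 299 and 479 FPKM in Nono-/- livers, against 23.7, 110.5 and 56.8 FPKM in WT livers, without overlap (log2 difference 2.94 ± 1.07, adjusted p = 0.129). Its near copy Saa2 had 416, 92.1 and 392 FPKM in Nono-/- livers, against 8.58, 34.7 and 21.99 FPKM in WT livers (log2 difference 3.70 ± 1.39, adjusted p = 0.137), and reads may have been split between these copies. These differences were the widest of those named from the list and had the widest errors. Orm1, orosomucoid 1, had 1082, 1051 and 916 FPKM in Nono-/- livers, against 510.4, 741 and 543 FPKM in WT livers (log2 difference 0.77 ± 0.30, adjusted p = 0.145), and complement C3 was the member lower in all 3 pairs (log2 difference -0.47 ± 0.20, adjusted p = 0.172; -0.22 with the correction).

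Nono was the single call among 17 paraspeckle genes, whose median was -0.05 (-0.16 without the pair at ZT16, -0.12 with the correction). Pspc1, of the DBHS family like Nono, had 4.47, 4.43 and 4.94 FPKM in Nono-/- livers, against 4.06, 2.56 and 2.62 FPKM in WT livers (log2 difference 0.59 ± 0.18, adjusted p = 0.0824; 0.33 with the correction) and differed by 0.92 over the rest of the day. Sfpq, the other member of the family, was at 0.03 ± 0.11 (adjusted p = 0.889; 0.05 with the correction). Neat1, the RNA on which paraspeckles are built, had 25.2, 90.9 and 60.6 FPKM in Nono-/- livers, against 60.99, 43.9 and 114 FPKM in WT livers, in no fixed order (log2 difference -0.39 ± 0.39, adjusted p = 0.57), and the nuclear RNA Malat1 was at 0.14 ± 0.23 (0.75). Long nuclear RNAs as a list had 0 of 5 called. SR splicing factors had 0 of 16 called and a median of 0.02 (-0.13 with the correction), with Srrm2, a large scaffold of the spliceosome, at -0.66 ± 0.18 (0.069; -0.38 with the correction); Tceb2 overlaps Srrm2 on the other strand.

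Among stress genes the mitochondrial co-chaperonin Hspe1 rose, with 62.6, 61.3 and 53.9 FPKM in Nono-/- livers, against 36.8, 38.7 and 33.2 FPKM in WT livers, without overlap (log2 difference 0.70 ± 0.12, adjusted p = 0.0287; 0.61 with the correction, adjusted p = 0.0966). It was the 1 call among 18 heat and cold response genes (0.969% of all genes tested were called higher). The median of this list was 0.10 (0.04 with the correction, -0.006 without the pair at ZT16). Endoplasmic reticulum stress genes had 0 of 20 called, and their median changed sign between pairs, at -0.30, 0.29 and 0.22. Hspa5, the chaperone BiP, followed this order with 408, 705 and 549 FPKM in Nono-/- livers, against 527, 481 and 341 FPKM in WT livers (log2 difference 0.28 ± 0.25, adjusted p = 0.515; 0.15 with the correction). Ribosome biogenesis had 0 of 22 called and a median of -0.14 (-0.06 without the pair at ZT14, -0.10 with the correction). In all 3 pairs 2 of its genes were higher and 11 lower, beside 27.6% and 26.2% of all genes tested. Immediate early genes (12 tested), glucocorticoid-linked genes (13) and cell cycle genes (11) had 0 calls and medians of 0.03, -0.07 and 0.15, with Zbtb16, a glucocorticoid-induced repressor, at -1.12 ± 0.32 (0.072) and Ccng1, a p53 target, at 0.57 ± 0.14 (0.0542; 0.37 with the correction). Without 1 pair these medians ran from -0.09 to 0.19, from -0.30 to 0.03 and from 0.06 to 0.27, and with the correction they were 0.17, -0.03 and 0.13.

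**Figure D4:**
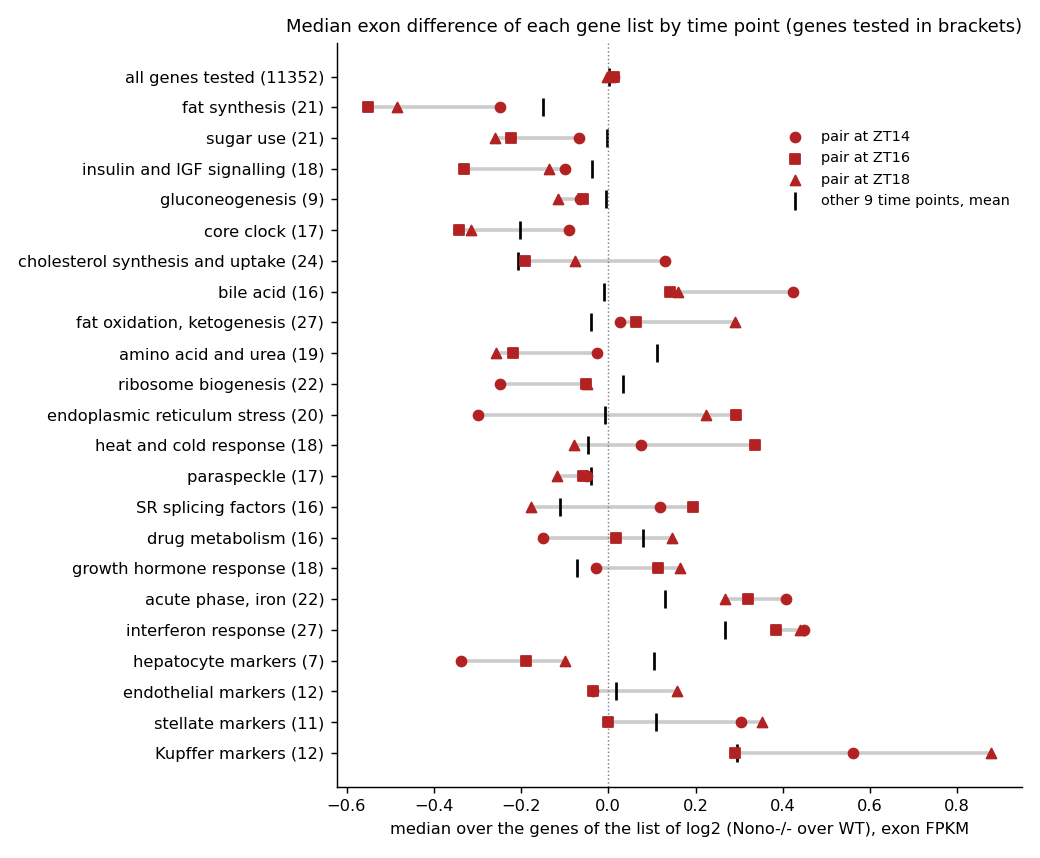
Median log2 difference in exon FPKM, Nono-/- over WT, over the tested genes of each list, for the pairs at ZT14, ZT16 and ZT18 (red symbols joined by a bar) and for the mean of the other 9 time points (black stroke). Interferon, acute phase and Kupffer lists sit above 0 in all 3 pairs and fat synthesis below, while the endoplasmic reticulum stress list lies on both sides.

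Beside Itgb1bp2 no gene passed in introns. Intron levels were tested as log2(scaled FPKM + 0.05), and this scaling matters: over all 9422 genes tested the median intron difference was -0.28 in the values as deposited and -0.01 after scaling, and the differences below are after scaling. By limma 1092 genes had an unadjusted p under 0.05, and 17.5% of genes were higher and 19.6% lower in all 3 pairs. As deposited, the groups did not overlap in 20.1% of these genes, with Nono-/- higher in 1.36% and lower in 18.8%. Introns of Srebf1 differed by 0.06, those of Mlxipl by -0.18, those of Fasn by -0.29 and those of Dgat2 by 0.01. Each was nearer to 0 than the exon difference of its gene. As deposited, the intron differences of these genes were -0.25, -0.49, -0.61 and -0.30, beside exon differences of -1.04, -0.84, -1.245 and -0.48. Introns of Kupffer markers had a median of 0.54, and 8 of 11 were higher in all 3 pairs. Fat synthesis genes had an intron median of -0.24 and interferon genes one of 0.27. In the values as deposited these medians were 0.27 for Kupffer markers, -0.52 for fat synthesis and -0.01 for interferon genes.

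The ratio of exon to intron signal was tested within each library over 8892 genes, with exons and introns scaled each on their own, and 4 passed (0.045%), 1 higher (0.0112%) and 3 lower (0.0337%), Nono among them (log2 difference of the ratio -5.37 ± 0.20, adjusted p = 6.8e-08). Without scaling 1 gene passed. Srebf1 fell in this ratio (log2 difference of the ratio -1.12 ± 0.16, adjusted p = 0.036). Its introns had 1.20, 1.30 and 1.14 intron FPKM in Nono-/- livers, against 1.32, 1.39 and 1.66 intron FPKM in WT livers as deposited, an intron difference of 0.06 after scaling, beside the lower exons given above. Reep6, which encodes a protein that shapes the endoplasmic reticulum, fell as well (log2 difference of the ratio -0.96 ± 0.14, adjusted p = 0.036), with exons at 31.4, 27.4 and 63.4 FPKM in Nono-/- livers, against 49.2, 69.5 and 70.9 FPKM in WT livers. Plpp1, a lipid phosphate phosphatase, rose (log2 difference of the ratio 0.89 ± 0.13, adjusted p = 0.036), with exons at 11.1, 10.1 and 9.98 FPKM in Nono-/- livers, against 8.09, 7.12 and 6.65 FPKM in WT livers. Its introns were at 0.144, 0.305 and 0.241 intron FPKM in Nono-/- livers, against 0.306, 0.394 and 0.448 intron FPKM in WT livers; Skiv2l2 overlaps it on the other strand. Without the pair at ZT14 or at ZT16 all of these calls but that of Nono were lost, and without ZT18 those of Srebf1 and Reep6 held and that of Plpp1 did not.

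The difference in this window was also set against the mean difference over the other 9 time points. No gene passed this test by limma (0.0% of 11352), with 1044 at an unadjusted p under 0.05, and none passed under any of the alternatives run. The sizes for named genes are given as a description. Srebf1 differed by -1.05 in the window and by 0.05 outside it, Fasn by -1.26 and -0.41, Gabarapl2 by 0.87 and 0.13, and Saa1 by 2.94 and 0.14. For Srebf1 the mean outside the window joined times of opposite sign. Its level was lower in Nono-/- livers at ZT20 (20.6 against 44.2 FPKM in WT livers) and ZT22. At ZT2, ZT4, ZT6 and ZT8 it was higher (13.7 against 5.97 FPKM at ZT8). Fasn at ZT20 had 40.8 FPKM in Nono-/- livers, against 144 FPKM in WT livers. Per1 (-1.09 and -0.87), Irs1 (-0.54 and -0.46), Mup21 (-0.98 and -1.15) and Pspc1 (0.59 and 0.92) had differences of the same sign in and out of the window. Over the day Srebf1 peaked at ZT22 in both genotypes, at 26.9 FPKM in Nono-/- livers and 48.1 FPKM in WT livers, and Fasn peaked at ZT22 in Nono-/- livers (60.2 FPKM) and at ZT20 in WT livers (144 FPKM). Per1 was lower in Nono-/- livers at 12 of 12 time points and Mlxipl at 11 of 12.

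**Figure D5:**
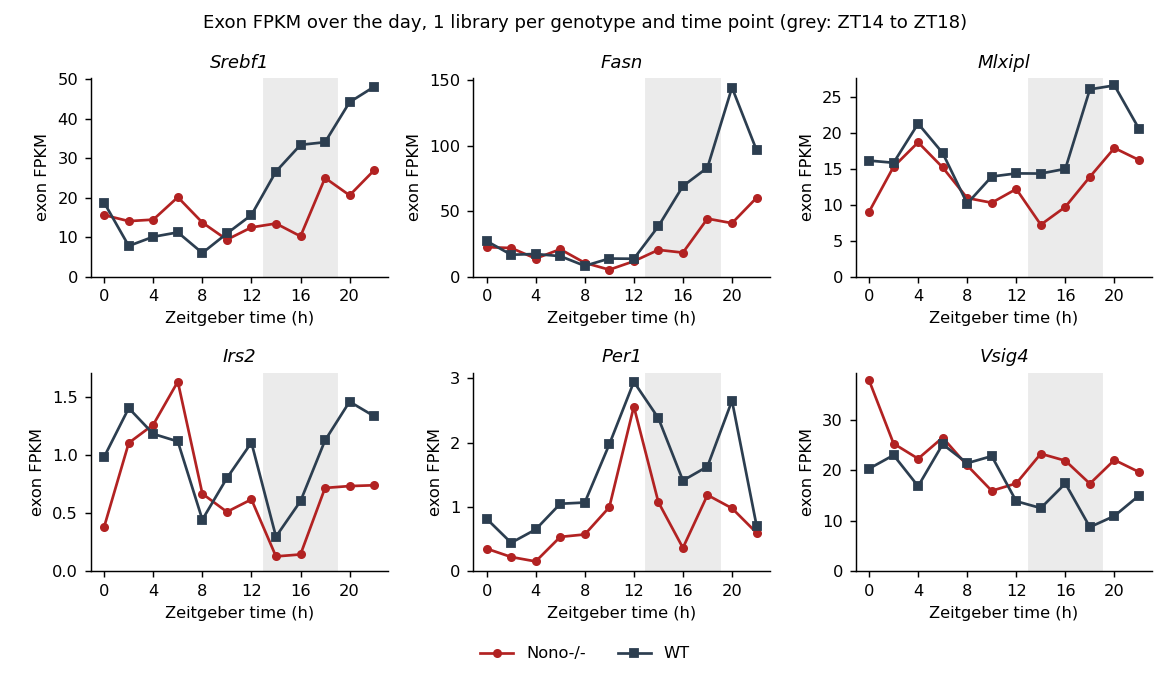
Exon FPKM of 6 genes over the day against zeitgeber time, with 1 library per genotype and time point (Nono-/- red circles, WT dark squares) and ZT14 to ZT18 shaded. Within the shading Srebf1, Fasn, Mlxipl, Irs2 and Per1 are lower and Vsig4 higher in Nono-/- livers at all 3 time points.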

How the data were processed

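Livers were collected at 12 time points, and RNA was sequenced after ribosomal RNA removal with a stranded total RNA kit, per the labels' protocols; each sample pools 2 mice. Per the submitters' processing notes, which give no roles, the tools included STAR 2.4.0k and FastQC 0.11.2 and the build was mm10. The deposited values are FPKM over exons or introns per gene, made with HOMER's analyzeRepeats for mm10 with isoforms condensed to genes, per the file headers; its version and a strand setting are not given in the sources used here. Depth was taken from the steps of low deposited FPKM values, which are whole multiples of what 1 read is worth, and was 13.7 to 21.8 M reads in the 6 libraries; the tests used FPKM, not reads.

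FPKM was scaled per library by median ratios and tested as log2(FPKM + 0.1) in exons (mean of at least 0.5 FPKM over the 24 total RNA libraries) and log2(FPKM + 0.05) in introns (at least 0.1). Limma 3.58.1 with a variance trend (R 4.3.3) was fitted to these 24 libraries with the time point as a block and a genotype effect for each of 4 windows of 3 time points, and Benjamini-Hochberg adjustment ran over all genes tested. The fit was also run on simulated counts, drawn independently with a fixed spread around the mean of each time point. Apart from depth, known changes and a GC slope in some runs, these hold no differences between libraries such as the intron share. They cannot vouch for the count of calls. The levels printed are the FPKM as deposited. List medians are medians of the fitted differences. Exon length came from the deposited tables and GC content from GENCODE transcripts of GRCm38, matched by accession or symbol for 11298 of the 11352 genes. For the correction, deviations of the log2 values from each gene's mean over the 24 libraries were used. In each library they were regressed on length and GC content with natural splines, and the fitted part was subtracted.

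The members and the gene lists were chosen with earlier results of these data known. The rule for named genes took up to 12 called genes each way by size of the difference, at 1 FPKM or more in the higher genotype and other than microRNA and small RNA entries, that kept their call in every fit without a pair; it gave Nono alone, so the same rule without that condition is used, and it and the other genes named from lists were chosen after values were seen. Alternatives were another pseudocount, filter, scaling, block, set of libraries, variance trend, an intron share covariate and each pair left out. The covariate was the intron share of all reads, not that of the exon and intron reads. Some genes that the rule or the lists hold are not reported here. Libraries of nuclear RNA were not used.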

Additional observations from a re-analysis of the deposited data

How the results depend on the processing

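The 178 exon calls depended on the settings: limma gave 276 with a 4 times stricter filter, 48 with no filter, 330 without scaling, 288 with upper quartile scaling, 900 with the intron share as a covariate (315 higher, 585 lower) and 13 with the length and GC correction. With the replicate block and only the 6 libraries 619 genes passed, and without the block 3 passed, in 24 or in 6 libraries. Leaving out a pair gave 1 to 7 calls. The time point is the only pairing in the labels. Deviations from the group means correlated within pairs at 0.313 (ZT14), 0.0961 (ZT16) and 0.425 (ZT18) in exons, and not every library correlated best with its own time.

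The intron count of 1 became 2 with a 10 times higher pseudocount, 0 with a stricter filter, 3 without scaling, 2 without the block, 0 in 6 libraries with or without it, 4 with the covariate, and 1 without any pair. The ratio count of 4 became 92 with a higher pseudocount, 40 with the covariate, and 1 with no filter, no scaling, no block, 6 libraries (either fit) or no trend; it was 1 to 4 without a pair. The test against the rest of the day gave 0 calls in each setting it was run in; the 6 libraries alone hold no other times, and it was not run with the length and GC correction. The intron share difference was -2.09 to -6.57 points without a pair.

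Recomputed under the alternatives, list medians moved by more than the spread between pairs in 38 cases and by less in 436. Without 1 pair the medians of the lists on cholesterol, endoplasmic reticulum stress, heat and cold, immediate early, glucocorticoid, glucagon, growth hormone, SR splicing, P450, long nuclear RNA, endothelial and erythroid genes changed sign. Genes whose difference changed sign, none of them called, were Rsad2 (-0.12), Sfpq (-0.0285), Neat1 (0.0591) and Tef (0.0001166) without ZT14; Malat1 (-0.20), Nr1d1 (0.0788) and Tef (0.002038) without ZT16; and Clock (0.0412) without ZT18. With the covariate they were Isg15 (-0.17), Neat1 (0.29), Per3 (0.18), Rora (0.0754) and Tef (0.21), and with the length and GC correction Per3 (0.0921), Nr1d1 (0.0534), Rora (0.13), Tef (0.17) and Ppara (0.0511). The cause was not tested. Depth limits genes near 1 FPKM most, and no counting error was computed for them.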
